A study of Mus musculus with 2 samples.

Results

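The 39 genes described here encode the proteins that join epithelial cells to each other: tight junctions, adherens junctions, desmosomes, gap junctions, and the adhesion and polarity proteins Epcam, Crb3 and Pard3. They were listed by gene name and function, and were found on the arrays through the RefSeq accession listed for each probe. All 39 had at least 1 probe, out of 22907 genes that could be named on the arrays, and together they had 63 probes. The measurements came from whole pancreas of male C57BL/6 mice at 5 weeks of age, with 1 array for a WT pancreas and 1 array for an Nrdc-cKO pancreas. The Nrdc-cKO mouse carried Ptf1a-Cre and loxP-flanked Nrdc alleles (Ptf1a-Cre; Nrdcflox/flox), and the study asked what nardilysin, the metalloendopeptidase encoded by Nrdc, does in the exocrine gland. Ptf1a is active in progenitors of the pancreatic epithelium, so Cre driven by it is not meant to delete Nrdc in stroma, vessels or immune cells of the same tissue. Whether the WT mouse carried Cre or the loxP-flanked alleles is not given in the labels.

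Tight junctions seal the space between neighbouring epithelial cells, and their claudins decide which ions and how much water pass between the cells. Adherens junctions hold cells together through cadherins tied to actin by catenins, while desmosomes tie cells to each other's intermediate filaments. Gap junctions are channels of connexins that let calcium and small molecules pass from cell to cell. In the pancreas, tight junctions keep digestive enzymes within the acinar and duct lumen, and the gap junctions of acinar cells and of islet beta cells are built from different connexins.

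With 1 array per group there was no spread between animals and no test. Each difference below describes these arrays, and the small number of arrays limits its precision. The only error is technical. The scanner software's own error estimate for the processed signal, carried through to a log2 difference, ran from 0.20 to 0.35 over the measured members, with a median of 0.21. Levels are log2 processed signals minus the array's 75th percentile, so 0 is the 75th percentile of all probes, and a difference is Nrdc-cKO minus WT. The Nrdc-cKO array was brighter, with a 75th percentile of 227 against 70.8 processed signal units on WT, and 60.3% against 46.3% of its non-control spots were well above background. Nrdc, the targeted gene, had a level of 1.93 on WT and of -1.28 on Nrdc-cKO by its 1 probe, a difference of -3.21. Which exons were floxed is not stated in the labels, so whether this probe lies in the deleted stretch is unknown.

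Most junction genes differed little between the arrays. Of the 39 members, 34 passed the filter, which asks for a probe well above background on both arrays, and 28 of these were within 2-fold. Cdh2 alone was higher by 2-fold or more, 1 of 34, against 12.8% of all 12997 genes that passed the same filter. Another 5 of 34 were lower by 2-fold or more, namely Cldn2, Cldn10, Cldn23, Pkp3 and Gjb1, against 17.3% of all genes. In either direction that makes 6 of 34, against 30.1% of all genes. The share of members past 2-fold lower, 14.7%, was thus near that of all genes, and the share past 2-fold higher, 2.94%, was below it. The median difference of the members was -0.22, beside -0.18 for all genes, and 22 of 34 were below 0, beside 58.7% of all genes. A difference under 0.5 on the log2 scale was seen in 16 of 34 members, beside 42.6% of all genes. The other 5 members, Cldn1, Pvrl3, Dsc2, Gja1 and Gjd2, were well above background on the Nrdc-cKO array only and are given as bounds.

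**Figure D1:**
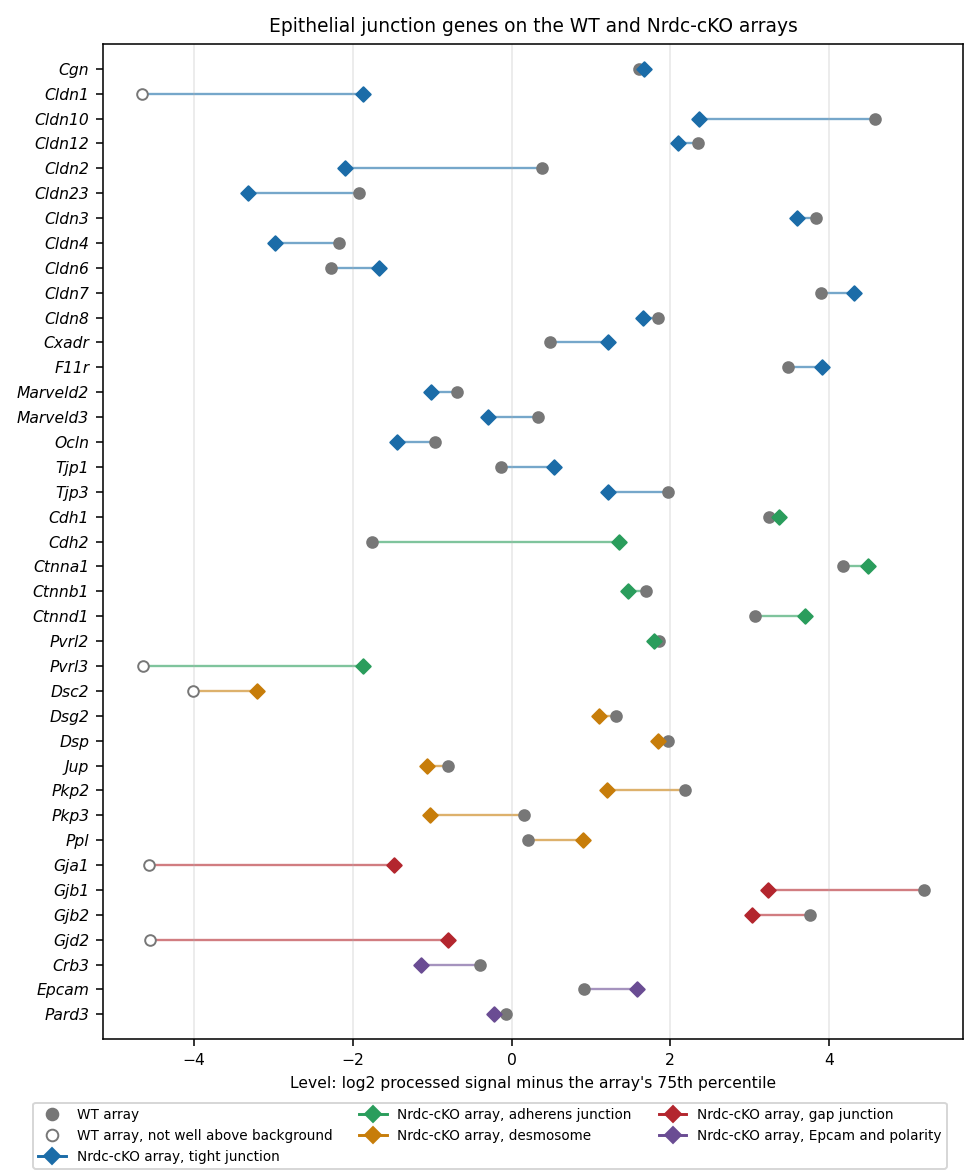
Level of each of the 39 junction genes on the WT array (grey circles, open where the probe was not well above background) and on the Nrdc-cKO array (coloured diamonds, by junction class), as log2 processed signal minus the array's 75th percentile, 1 array per group. Most pairs lie close together, the longest lines between filled symbols belong to Cdh2, Cldn2, Cldn10 and Gjb1, and open circles mark Cldn1, Pvrl3, Dsc2, Gja1 and Gjd2. Levels of different genes come from different probes and are not comparable with each other.

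The tight junction genes had 17 of 18 members measured, of which 3 were lower by 2-fold or more, 0 were higher and 14 stayed within 2-fold. The shares of all genes, 17.3% lower and 12.8% higher, stand beside the counts of this and each later class. The median difference of the tight junction genes was -0.26. All 3 lower members were claudins, the membrane proteins that form the seal and its pores. Cldn10, a claudin that forms ion-selective pores, had levels of 4.58 on WT and 2.36 on Nrdc-cKO, a difference of -2.22 or 4.65-fold lower. Its processed signal before any scaling was 1692 on WT and 1169 on Nrdc-cKO, so it was the dimmer spot on the Nrdc-cKO array although that array was brighter as a whole. Cldn23 had a difference of -1.40, from dim spots with processed signals of 18.6 on WT and 22.7 on Nrdc-cKO.

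Cldn2, which forms pores for sodium and water, gave opposite answers with its 2 probes, both listed under the same RefSeq transcript. The probe that was well above background on both arrays had a level of 0.39 on WT and -2.10 on Nrdc-cKO, a difference of -2.49. The other probe was not well above background on WT, with a processed signal of 2.62, and reached 337 on Nrdc-cKO, which makes it at least 9.21-fold higher there. The direction of Cldn2 on these arrays is therefore not settled. Without Cldn2, the members at least 2-fold lower would be 4.

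The sealing claudins Cldn3 and Cldn7 stayed within 2-fold. Cldn3 had levels of 3.84 on WT and 3.60 on Nrdc-cKO (difference -0.24), and Cldn7 had levels of 3.89 and 4.32 (0.42). Cldn4, also a sealing claudin, was dim on both arrays at -2.17 and -2.98 (-0.81), with a technical error of 0.33. The remaining measured claudins were Cldn8 (-0.19), Cldn12 (-0.26) and Cldn6 (0.61), the last a claudin of embryonic epithelia with an error of 0.35 and with normexp background correction at -0.40 (75th percentile scaling) or 0.08 (quantile scaling). Cldn1, a sealing claudin of many epithelia, passed the background filter on Nrdc-cKO alone and was at least 1.71-fold higher there. In all, 3 of 9 measured claudins were lower by 2-fold or more, or 2 of 8 without Cldn2, beside 17.3% of all genes.

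None of the 8 tight junction members other than claudins passed 2-fold, and their differences were 4 above and 4 below 0. Occludin (Ocln) and its relatives tricellulin (Marveld2) and Marveld3 were all below 0, at -0.49, -0.33 and -0.63, and the 3 probes of Marveld3 ranged only from -0.71 to -0.51. The scaffold Tjp3 (ZO-3) stood at -0.76, with probes at -0.83 and -0.69, while the scaffold Tjp1 (ZO-1) stood at 0.67, with probes at 0.44 and 0.89. These related scaffolds link the claudins to actin, and on these arrays their probes did not overlap. Cingulin (Cgn), which binds both scaffolds, was at 0.06. The immunoglobulin-like adhesion proteins F11r (JAM-A) and Cxadr were at 0.43 and 0.73.

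**Figure D2:**
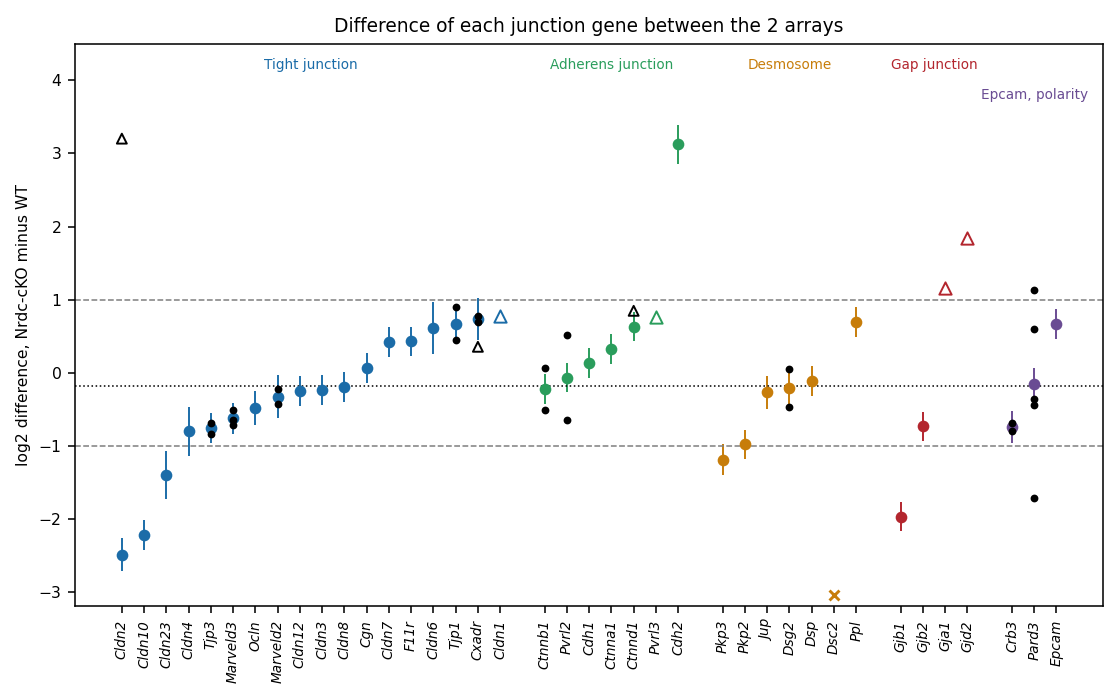
log2 difference (Nrdc-cKO minus WT, 1 array each) of each junction gene, by class. Coloured points are the mean over probes detected on both arrays with the scanner software's error, black points the single probes where there were several, open triangles lower bounds for probes above background on Nrdc-cKO alone, and the cross at the foot marks Dsc2, which had no bound above 0. Dashed lines mark 2-fold and the dotted line the median of all genes (-0.18); Cldn2 has 1 point at -2.49 and 1 bound at 3.20.

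The adherens junction genes had 6 of 7 members measured, 1 of them higher by 2-fold or more and 0 lower. Their median difference was 0.23. Cdh2, encoding N-cadherin, which joins neural and mesenchymal cells and also islet endocrine cells, had a level of -1.76 on WT and 1.36 on Nrdc-cKO. Its difference of 3.12, or 8.72-fold, was the largest of the 34 measured members. The WT spot was dim, with a processed signal of 20.8 against 584 on Nrdc-cKO. Cdh1, encoding E-cadherin, the cadherin of epithelial cells, differed by 0.13, from 3.24 on WT to 3.37 on Nrdc-cKO. That is less than the scanner software's error estimate of 0.20. The estimate was nearly the same for all bright members, so it is not a spread measured for Cdh1. Relative to the median of all genes, Cdh2 stood at 3.31 and Cdh1 at 0.31. That value of Cdh1 ran from 0.30 to 0.59 over the settings computed for all genes. The plain difference of Cdh1 depended on the scaling, described below. It was 0.44 with loess, 0.63 in the authors' value table, 1.82 with no scaling and 2.03 with spike-in scaling.

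The catenins, which connect cadherins to actin, were all within 2-fold. Alpha-catenin (Ctnna1) was at 0.32, from 4.18 to 4.49, and p120-catenin (Ctnnd1) at 0.63, from 3.07 to 3.70. Beta-catenin (Ctnnb1) was at -0.23, with probes at -0.52 and 0.06. The nectin Pvrl2, an immunoglobulin-like protein of the adherens junction, had a mean of -0.07 that hides opposite probes. The probe listed under one RefSeq transcript was at -0.65 and the probe listed under the other at 0.52. Its relative Pvrl3 passed the background filter on Nrdc-cKO alone, at least 1.70-fold higher by its brightest probe.

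Desmosomes had 6 of 7 members measured, 1 of them lower by 2-fold or more and 0 higher. Their median difference was -0.24. The plakophilins, plaque proteins that gather the desmosomal cadherins, were the lowest members of the class. Pkp3 had a level of 0.16 on WT and -1.03 on Nrdc-cKO (difference -1.19), and Pkp2 had levels of 2.19 and 1.21 (-0.98), just inside 2-fold. The plaque's anchor for keratin, desmoplakin (Dsp), was at -0.12, the desmosomal cadherin Dsg2 at -0.22 and plakoglobin (Jup), which also serves adherens junctions, at -0.27. Periplakin (Ppl), a linker to keratin filaments, was the single desmosome member above 0, at 0.69. The desmosomal cadherin Dsc2 passed the background filter on Nrdc-cKO alone, at a level too low to give a bound.

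Gap junction genes lay on both sides of 0. Gjb1 (Cx32) and Gjb2 (Cx26), the connexins of acinar cells, were measured on both arrays, and Gja1 and Gjd2 on Nrdc-cKO alone. Gjb1 had a level of 5.20 on WT and 3.23 on Nrdc-cKO, a difference of -1.97 or 3.92-fold lower. Its processed signal was 2599 on WT and 2131 on Nrdc-cKO before scaling. Gjb2 had levels of 3.76 and 3.03, a difference of -0.74. Gjd2 (Cx36), the connexin of islet beta cells and neurons, was not well above background on WT and was at least 3.57-fold higher on Nrdc-cKO. Gja1 (Cx43), a connexin of fibroblasts, smooth muscle and many other cells, passed the filter on Nrdc-cKO alone with all 3 of its probes and was at least 2.23-fold higher by the brightest. Of all genes, 12.4% passed the filter on Nrdc-cKO alone, and 24.8% of those had a bound of 2-fold or more, beside 2 of the 5 such members.

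The start regions of 4 of these genes are shown because the genes had the largest differences outside Cdh2 among members with an entry and lay on both sides of 0. They are the 250 bases before the annotated start, from RefSeq on GRCm38.p6, 5′ to 3′ on the strand of the gene. Capitals mark E-boxes, the sites of basic helix-loop-helix and zinc finger factors, in 3 forms, searched on both strands: CATATG, a form bound by the acinar factor Bhlha15 (Mist1), CAGCTG, and CACCTG, which reads CAGGTG on the other strand and is the form bound by Snail and Zeb repressors. The window of Gjb1 is 1 of 4 in the table and lies on the plus strand at chrX:101383482-101383731. That of Cldn10, 1 of 2, lies on the plus strand at chr14:118854700-118854949. That of Cldn2 lies on the plus strand at chrX:139800558-139800807, and that of Gjd2 on the minus strand at chr2:114013620-114013869.
Gjb1: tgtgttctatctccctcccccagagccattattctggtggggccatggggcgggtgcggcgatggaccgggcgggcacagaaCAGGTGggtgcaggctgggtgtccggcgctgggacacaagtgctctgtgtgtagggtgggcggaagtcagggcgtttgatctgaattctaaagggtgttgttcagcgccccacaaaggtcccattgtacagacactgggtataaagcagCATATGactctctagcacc
Cldn10: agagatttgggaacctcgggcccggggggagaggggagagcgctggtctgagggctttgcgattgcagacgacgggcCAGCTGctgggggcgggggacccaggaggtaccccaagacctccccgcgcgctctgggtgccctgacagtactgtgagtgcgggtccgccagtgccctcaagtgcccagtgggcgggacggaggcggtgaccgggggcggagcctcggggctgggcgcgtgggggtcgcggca
Cldn2: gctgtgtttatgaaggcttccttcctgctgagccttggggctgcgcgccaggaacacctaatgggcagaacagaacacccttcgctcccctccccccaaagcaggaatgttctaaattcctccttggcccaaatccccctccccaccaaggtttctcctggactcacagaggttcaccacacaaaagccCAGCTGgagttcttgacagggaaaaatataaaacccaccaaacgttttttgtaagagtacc
Gjd2: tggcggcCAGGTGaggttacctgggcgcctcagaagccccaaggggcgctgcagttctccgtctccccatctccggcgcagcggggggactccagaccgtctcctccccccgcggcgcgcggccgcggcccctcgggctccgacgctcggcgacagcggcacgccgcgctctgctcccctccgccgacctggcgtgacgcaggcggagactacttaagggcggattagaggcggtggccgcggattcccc
In these windows the Gjb1 sequence held a CATATG beginning 19 bases before the start and a CACCTG form at 168 bases, and no matches overlapped. The other 3 windows of Gjb1 and the other window of Cldn10 held none of the 3 forms. Over all 32851 windows in the table, 3.46% held CATATG, 13.0% CAGCTG and 17.2% CACCTG. Of the 39 members, 27 had an entry, with 41 windows, some of which overlap within a gene. CATATG was in 1 of these windows, CAGCTG in 3 and CACCTG in 15 (36.6%). A motif of Grainyhead factors, AACNGGTT, was searched on the strand of the gene only, so matches on the other strand were not counted. It was in 0.983% of all windows and in 1 of the members', that of Cgn. A match describes the letters only and does not show that a factor binds there.

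The 3 members outside these classes were within 2-fold. Epcam, an adhesion protein of epithelial cells and a common marker of them, had levels of 0.91 on WT and 1.58 on Nrdc-cKO (difference 0.67). Crb3, an apical polarity protein, was at -0.74, with both probes close together (-0.80 and -0.69). Pard3, a polarity scaffold, had a mean of -0.16 over 5 probes that disagreed, and they ranged from -1.72 to 1.13. The 2 detected probes listed under one of its RefSeq transcripts were at 0.59 and 1.13, while the other 3, listed under the other 2 transcripts, were at -0.35, -0.44 and -1.72.

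Where several probes of a member were detected on both arrays, most members had probes of 1 sign. Probes detected on Nrdc-cKO alone are outside this count, among them the second Cldn2 probe, which went the opposite way. Of 10 members with over 1 probe detected on both arrays, 4 had probes on both sides of 0 (Ctnnb1, Pvrl2, Dsg2 and Pard3), and in Ctnnb1 and Dsg2 every probe was within 0.52 of 0 on the log2 scale. The members past 2-fold each rested on 1 probe detected on both arrays.

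Because the Nrdc-cKO array was brighter as a whole, the scaling set where 0 lies, and a shift of all genes alike turned members near 0. Relative to the median of all genes under the same scaling, 24 of the 34 kept 1 sign under all 10 scalings, 12 above the median and 12 below it. Only quantile, loess and the normexp settings could change such a sign, because the other scalings shift all genes alike. In the authors' deposited value table, with scaling on the labelling spike-in probes and with no scaling, the median of all genes moved by 0.50, 1.89 and 1.68 on the log2 scale, and by 0.06 to 0.26 in 6 others. Cldn10 and Gjb1 came to only -0.33 and -0.08 with spike-in scaling, which ends both calls, as does no scaling. The numbers of all genes higher and lower by 2-fold, 1666 and 2250, became 2054 and 1382 with loess, 2888 and 1074 in the value table, and 10372 and 115 with spike-in scaling. Pkp3 and Cldn23 turned to 0.70 and 0.50 with spike-in scaling, and stood at -0.70 and -0.90 in the value table. Cldn23 came to -0.40 with loess, and Pkp3 to -0.83 and -0.67 with normexp. Relative to the median of all genes in the same setting, Cldn10 lay between -2.05 and -1.61, Gjb1 between -1.80 and -1.37, Pkp3 between -1.20 and -0.63 and Cldn23 between -1.44 and -0.40 in the settings computed for all genes. Cdh2 was above 0 in each setting that gave it a value, from 1.89 with normexp to 5.02 with spike-in scaling.

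**Figure D3:**
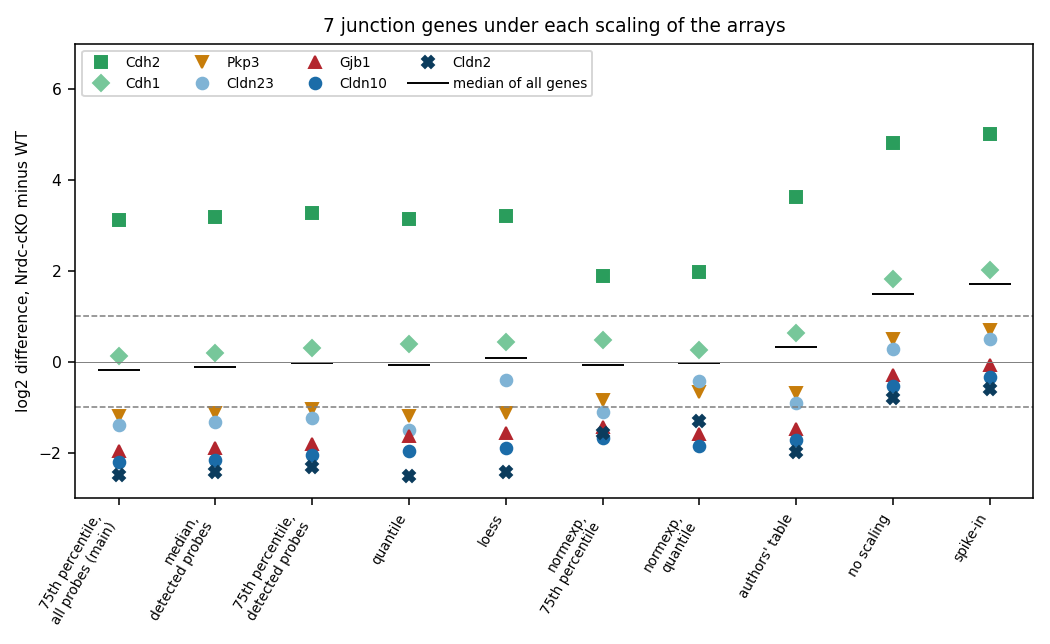
log2 difference (Nrdc-cKO minus WT) of 7 junction genes under 10 ways of scaling the arrays, with the median of all genes as a black bar and 2-fold as dashed lines. Cdh2 lies above all other points in each scaling, and Cldn10, Gjb1 and Cldn2 lie below the median of all genes in each, with Cldn2 drawn for its probe detected on both arrays only. The order of the points is fixed between scalings that shift all genes alike.

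A further 97 junction genes that are not members, listed by class, were measured beside them. Among the 64 measured, 12 (18.8%) were higher and 11 (17.2%) lower by 2-fold or more, beside 12.8% and 17.3% of all genes. Their median was 0.21. Another 24 passed the filter on neither array. The largest differences were those of the claudin Cldn9 at -3.29, the connexins Gjd3 at -2.10 and Gja5, a connexin of arteries, at -1.83, and the muscle cadherin Cdh15 at -1.98. In the other direction stood the channel Panx1 at 1.98, the scaffold Amot at 1.96, the endothelial claudin Cldn5 at 1.80 and the desmosomal envoplakin Evpl at 1.77. Cldn9 and Cdh15 were dim on Nrdc-cKO, at levels of -3.32 and -3.89, where the lowest detected level was -4.18. Cdh15 had a technical error of 0.39. Under the 10 scalings Cldn9, Panx1, Amot, Cldn5 and Evpl stayed past 2-fold. Spike-in scaling brought Gjd3 to -0.21, Cdh15 to -0.09 and Gja5 to 0.07, and no scaling brought them to -0.42, -0.30 and -0.14. Cdh15 also came to -0.75 with loess and to -0.51 with normexp and quantile scaling, where Gja5 came to -0.86.

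Of 17 transcription and splicing factors that set epithelial or mesenchymal state, 11 were measured, 4 of them higher and 3 lower by 2-fold or more. Of all genes, 12.8% were higher and 17.3% lower. Besides those described next, Ehf (1.38), Snai1 (1.14) and Klf4 (1.04) were higher, and Ovol2 (-1.39) and Esrp1 (-1.18) lower. Grhl1, Grhl2, Elf3 and Klf5 were within 2-fold. Zeb2, a repressor of Cdh1, was at 2.34, with its 2 measured probes at 2.04 and 2.64, and its relative Zeb1 passed the filter on Nrdc-cKO alone, at least 3.56-fold higher. Twist2, a mesenchymal factor, did so too, at least 3.96-fold higher. Snai2 also passed on Nrdc-cKO alone, at least 2.54-fold higher, as did Twist1 and Ovol1, with no bound above 0. Grhl3 passed on neither array. Esrp2, a splicing factor of epithelial cells, was at -1.93, at -0.04 with spike-in scaling and at -0.25 with no scaling. Cdh1, the best known target of these repressors, had the difference of 0.13 given above. Which cells of the tissue gave the RNA of these factors, and whether they act on Cdh1 there, was not tested.

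Markers of the gland's cell types differed too. All 8 acinar markers were lower by 2-fold or more, with Cel at -1.88, Ctrb1 at -1.74 and Amy2a5 at -1.95, and their summed level, in multiples of the array's 75th percentile, was 23910 on WT and 5857 on Nrdc-cKO. That count depended on the scaling: 3 of the 8 were lower by 2-fold with quantile scaling (median -0.41), loess (-0.68), normexp and quantile scaling (-0.43) and no scaling (-0.23), and 1 with spike-in scaling (-0.02), beside 8 and a median of -1.92 as reported. Gjb1 and Cldn10 lay in the range of these markers, -4.25 to -1.30, and under each of the 10 scalings 3 of the 8 markers were lower than either. Only quantile, loess and the normexp settings could change that order, because the others shift all genes alike. The range was not particular to Gjb1 and Cldn10. Cldn23 at -1.40 and the Cldn2 probe detected on both arrays, at -2.49, lay in it as reported. So did other listed genes, such as Cldn9 at -3.29 and Esrp2 at -1.93. Gjb1 and Cldn10 lay near the markers' median as reported, but below it with loess, where Gjb1 was at -1.56 and Cldn10 at -1.89, and with quantile scaling, at -1.63 and -1.96. Of 9 islet markers, 8 were higher by 2-fold or more and 0 lower, from 0.15 to 4.59, with a summed level of 365 on WT and 2698 on Nrdc-cKO. The difference of Cdh2 lay in that range. The range is wide, and most other members above 0, such as Epcam at 0.67 and Ctnnd1 at 0.63, lay in it too. The log2 bound of Gjd2, 1.84, is a lower limit and does not place Gjd2 within a range. All 6 measured fibroblast and stellate markers were higher by 2-fold or more, with summed levels of 168 and 644, and the remaining one, Des, was not well above background on WT. In bulk tissue, fewer cells of a type and less RNA per cell cannot be told apart. The part of these cell types in the junction gene differences was not tested.

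Of 7 duct markers, 3 were higher and 1 lower by 2-fold or more, with Spp1 at 2.88, Krt19 at 0.25 and Sox9 at 0.36, and a summed level of 32.0 on WT and 179 on Nrdc-cKO. Spp1 made up most of that sum, which was 9.62 and 14.1 without it. Endothelial markers had 2 of 7 higher and 0 lower (summed levels 9.66 and 17.0), and mesothelial markers 2 of 5 higher and 0 lower (13.5 and 18.9). Macrophage markers had 5 of 6 higher and 0 lower (18.0 and 54.6, or 4.68 and 26.9 without Csf1r). Of 6 adipocyte markers, the measured ones went opposite ways, with Lep at -1.87 and Fabp4 at 2.51. Adipoq, Plin1, Cidec and Cfd were not well above background on WT, and the sums were 11.4 and 350, or 11.4 and 125 without Cfd. Of 4 nerve markers, Sox10, S100b and Ngfr were not well above background on WT, with sums of 0.511 and 2.37. Each defining marker of acinar, duct and islet cells was well above background on both arrays.

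**Figure D4:**
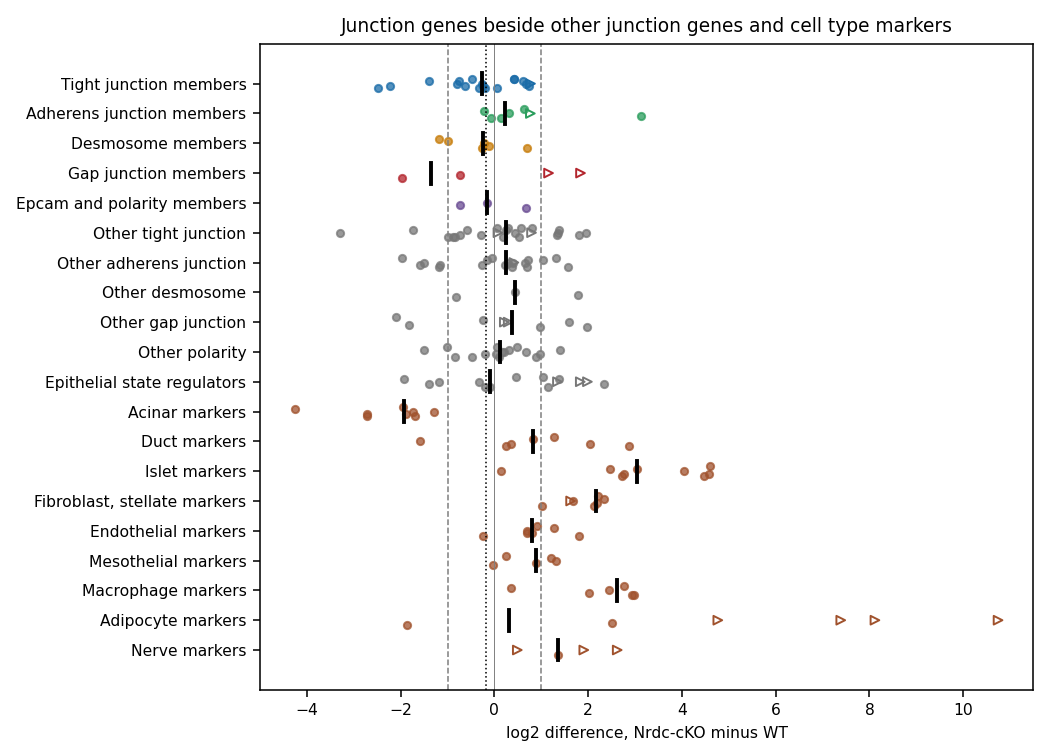
log2 difference (Nrdc-cKO minus WT, 1 array each) of every measured gene in the junction classes, in the other junction genes and in the cell type marker lists. Points are genes, black bars list medians, open triangles lower bounds for genes above background on Nrdc-cKO alone, dashed lines 2-fold and the dotted line the median of all genes. The tight junction, desmosome and Epcam and polarity medians (-0.26, -0.24 and -0.16) lie near the dotted line, while acinar markers lie wholly below it and islet markers wholly above it.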

How the data were processed

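Total RNA of each pancreas was labelled with Cy3 and hybridised to a 1-colour Agilent array, per the labels. The titles give the groups. The file headers give the arrays 1 slide barcode and 1 scan time. The deposited scanner files give a processed intensity per spot, corrected for background and spatial trend by Agilent Feature Extraction (12.0.3.1 per the file headers, 11.5.1.1 per the submitters' processing notes) and not normalized between arrays. The authors' deposited value table is the same intensity multiplied by 4.37 (WT) and 1.92 (Nrdc-cKO), linear and not centred, with medians of 42.5 and 66.0. The reason for these constants is not stated in the labels or headers. Flags of saturation, outliers and signal above background are other fields of the deposited files.

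Control spots and 115 spots flagged as outliers on either array were left out, and no spot was saturated. Processed signals were put on a log2 scale and repeat spots averaged, which left 56604 probes, and each array's 75th percentile was subtracted. Detection asked for a share of 0.5 or more of a probe's spots flagged well above background. Differences were averaged over a gene's probes that passed on both arrays, and calls used 2-fold. A gene detected on 1 array only was given a bound from its brightest probe: its level there against the higher of the other array's lowest detected level and the probe's own level, written as at least N-fold. Probes were named through unversioned RefSeq accessions in a gene table of GRCm38.p6 (32988 probes, 22907 genes), Pvrl2 and Pvrl3 through synonyms. No member had repeat spots; over 291 probes that did, the SD of the log2 difference had a median of 0.032. Normexp used limma 3.58.1 with an offset of 50 on median signals, and loess used statsmodels 0.14.6. The calculation was tested on simulated data.

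The members and lists were chosen with earlier results of these data known. Genes named are all members, Nrdc, the 12 largest differences or bounds among the other listed genes, and the 3 brightest measured markers of each cell type. Markers not above background on WT, and the remaining factors of epithelial or mesenchymal state, were named after their values were seen. One list of cell type markers is not reported here.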

Additional observations from a re-analysis of the deposited data

Results flagged for a closer look

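Cldn2 has a signal that the gene values above leave out. Its second probe was well above background on the Nrdc-cKO array and not on the WT array, with a log2 bound of 3.20, while the probe used for the gene gave -2.49. Of 6 members with such a left-out probe beside a measured one, Cldn2 was the only one whose bound passed 2-fold; the bounds of Ctnnd1 and Cxadr were 0.85 and 0.35, and those of Cgn, Jup and Pard3 gave no bound above 0.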

How the results depend on the processing

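No paired analysis was possible because neither group has a second array, and for the same reason no replicate could be left out. All 14 alternatives planned were run, and 3 were added after seeing the data (no scaling, genes on 1 array at their bound, and left-out probes at their bound). The cause was not tested, except where given. Members higher by 2-fold, 1 as reported, came to 28 with spike-in scaling, 24 with no scaling, 7 in the value table, 3 with loess, 6 with no filter on dim probes, 0 with bright probes only (24 members measured), 3 with genes on 1 array at their bound and 7 at 1.5-fold. Of all genes, 79.8% were higher by 2-fold with spike-in scaling, 72.6% with no scaling and 22.2% in the value table. Members lower by 2-fold, 5 as reported, came to 0 with spike-in and with no scaling, 3 in the value table, 3 with normexp and quantile scaling, 2 with bright probes only, 11 at 1.5-fold and 2 at 4-fold. The shares of all genes lower were 0.885% with spike-in scaling, 1.11% with no scaling and 8.26% in the value table. The members' median, -0.22, was 1.67 with spike-in scaling, 1.46 with no scaling, 0.27 in the value table, 0.036 with loess, 0.055 with normexp and 75th percentile scaling, and -0.0035 with normexp and quantile scaling. The median of all genes moved with it, and the members lay -0.05 to 0.12 from it under the alternative scalings and background corrections. Scalings that shift all genes alike could not change that distance. Cldn2 turned to 1.42 with no filter on dim probes and to 0.36 with its left-out probe at its bound, both by adding that probe. Cldn23 turned to 0.50 with spike-in scaling and 0.29 with no scaling, and Pkp3 to 0.70 and 0.49. Signal over background limits Cldn1, Pvrl3, Dsc2, Gja1 and Gjd2, and the dim spots of Cldn4, Cldn6 and Cldn23.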
